A study of Mus musculus with 4 samples.

Results

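The collagens outside type IV and the genes that process them were followed in semimembranosus muscle (a hamstring of the thigh) of mice with a narrowed iliac vein, given either diosmin or saline. Members were picked by gene symbol and not by their values: every protein-coding gene named as a collagen chain except type IV, plus Serpinh1, Sparc, P4ha1, P4ha2, Plod1, Plod2, Plod3, Lox, Loxl1 and Loxl2. This gave 48 of the 55401 genes in the count files, namely 11 fibrillar chains, 9 FACIT chains (fibril-associated collagens with interrupted helices), 6 type VI chains, 12 other chains and 10 processing genes. All mice were C57BL/6, aged 8 weeks, and all had a stenosis of the left external iliac vein, made with a ligature over a 30-gauge needle. The 2 libraries of the IVS group (for iliac vein stenosis) came from mice gavaged with saline, and the 2 of the IVS_diosmin group from mice gavaged with diosmin (40 mg per kg daily), a flavonoid glycoside taken for chronic venous disease. No library came from a mouse without the stenosis, and the sources used here do not give the length of treatment or the side of the muscle.

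Collagen chains wind in threes into a rigid triple helix, which depends on hydroxylation of proline and on a dedicated chaperone in the endoplasmic reticulum. Types I and III form the fibrils of the connective tissue around muscle fibres, type V regulates fibril width, type VI forms beaded filaments next to the fibre's basement membrane, and FACITs sit on fibril surfaces. In skeletal muscle the interstitial chains are made mainly by fibroblasts, while the processing enzymes are shared by many secretory cells.

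With diosmin 3 of the 37 members that had enough counts to be tested fell and none rose, against 2.96% of all tested genes called in either direction, 1.78% called lower and 1.17% called higher (400, 241 and 159 of 13533 genes, edgeR quasi-likelihood test, Benjamini-Hochberg adjusted p under 0.05). The 3 were Col24a1, a minor fibrillar chain, Serpinh1, the collagen chaperone HSP47 of the endoplasmic reticulum, and Sparc, a secreted protein that binds collagen. No chain of types I, III, V or VI passed the test. The median log2 fold change of the 37 members was -0.01, beside 0.01 over all tested genes, with 18 values above 0 and 19 below. For 20 of the 37 the groups did not overlap (14 lower, 6 higher), beside 47.5% of all tested genes. At an unadjusted p under 0.05 there were 10 members, against 16.8% of all tested genes, and DESeq2 called the same 3 genes. The count depended on single libraries: omitting IVS replicate 1 gave 4 called members, omitting IVS replicate 2 gave 1, omitting IVS_diosmin replicate 1 gave 0 and omitting IVS_diosmin replicate 2 gave 2.

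Gene counts ran from 13056650 to 15324354 per library. The labels do not say that the libraries of a group came from separate animals, and each p-value reflects the spread of these libraries alone, possibly a technical one. Muscle fibre markers were all present, 10 of 10, and summed to 112724 to 129187 CPM (counts per 1000000 after TMM scaling of library sizes). Within that list Myh1, a fast myosin, rose (log2 1.17, adjusted p = 0.0261 with edgeR; 0.239 and 0.260 with IVS replicate 2 or IVS_diosmin replicate 1 omitted), 5 of 10 had an unadjusted p under 0.05, and DESeq2 also called Pvalb and Tnni2 lower. Over all tested genes 16.8% had an unadjusted p under 0.05, and 1.78% were called lower and 1.17% higher. Several measures differed between the groups beside the members. Slow fibre genes summed to 73.4 and 88.2 CPM in IVS against 3706 and 1453 CPM with diosmin. All 8 were higher in both diosmin libraries than in both saline libraries, as were 23.4% of all tested genes. Of the 8, 7 were called higher with edgeR and 8 with DESeq2. Myl2 missed with edgeR (log2 5.42, adjusted p = 0.0599). Endothelial markers summed to 534 and 569 CPM in IVS against 307 and 276 CPM with diosmin. All 10 were lower in both diosmin libraries than in both saline libraries, as were 24.1% of all tested genes. Of the 10, 9 had an unadjusted p under 0.05. After adjustment 5 were called lower. That count was 4 without IVS replicate 1, 2 with IVS replicate 2 omitted (Cdh5 and Kdr), 0 with IVS_diosmin replicate 1 omitted and 3 with IVS_diosmin replicate 2 omitted. Adipocyte markers summed to 429 and 546 CPM in IVS against 225 and 195 CPM with diosmin. All 5 tested had values below 0, and Fabp4 alone was called lower with edgeR, while DESeq2 also called Pparg. The call of Fabp4 was lost when IVS replicate 2 or either diosmin library was omitted. Most of the adipocyte sum was Fabp4, at 412 and 503 CPM in IVS and 215 and 178 CPM with diosmin. Without Fabp4 the sums were 17.3 and 43.4 CPM against 10.02 and 16.9 CPM, with IVS replicate 1 and IVS_diosmin replicate 2 nearly equal. Reads aligned to more than 1 place made up 37.7% and 38.8% of reads in IVS and 45.6% and 43.6% with diosmin. Unaligned reads made up 2.75% and 2.89% against 1.50% and 1.42%. An rRNA-like gene, CT010467.1, took 4.14% and 3.80% of gene counts in IVS and 1.16% and 0.936% with diosmin, and Rn7sk, a nuclear noncoding RNA, went from 34.6 and 33.5 CPM to 11.9 and 5.97 CPM. The part of these in the members' values was not tested. In bulk muscle, fewer cells of a type and less RNA per cell cannot be told apart.

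Col24a1 encodes the chain of type XXIV collagen, a minor fibrillar collagen known from bone and cornea (mm10 chromosome 3, 145292472 to 145552011). Its level was 77.8 CPM in IVS replicate 1, 76.2 CPM in IVS replicate 2, 21.4 CPM in IVS_diosmin replicate 1 and 26.9 CPM in IVS_diosmin replicate 2; values below keep this order. Both diosmin libraries lay far below both saline libraries, and the saline libraries were nearly equal. The log2 fold change was -1.67 ± 0.21 (SE, adjusted p = 0.00269). Leaving out IVS_diosmin replicate 1 gave -1.52 with an adjusted p of 0.0740, and the call held without each of the other libraries. Col27a1, the fibrillar chain most like it in structure, was at 2.40 and 1.95 CPM in IVS and 2.93 and 4.72 CPM with diosmin (log2 0.81 ± 0.46, adjusted p = 0.412).

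Serpinh1 (chromosome 7, 99345376 to 99353239) was at 47.2 and 60.6 CPM in IVS and at 24.0 and 17.8 CPM with diosmin. The groups did not overlap. The log2 fold change was -1.37 ± 0.23 (SE, adjusted p = 0.00977). The adjusted p was 0.0940 without IVS replicate 2 and 0.0848 without IVS_diosmin replicate 1.

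Sparc (chromosome 11, 55394500 to 55423183) was at 134 and 156 CPM in IVS and at 75.4 and 63.3 CPM with diosmin, again without overlap. The log2 fold change was -1.07 ± 0.21 (SE, adjusted p = 0.0185), and only leaving out IVS replicate 1 kept the call (0.0290). Omitting IVS replicate 2 gave an adjusted p of 0.160, omitting IVS_diosmin replicate 1 gave 0.137 and omitting IVS_diosmin replicate 2 gave 0.0906, at log2 values of -0.96, -1.196 and -0.96. Endothelium also makes Sparc, and the endothelial markers were lower in the same libraries (given above); their part was not tested.

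**Figure D1:**
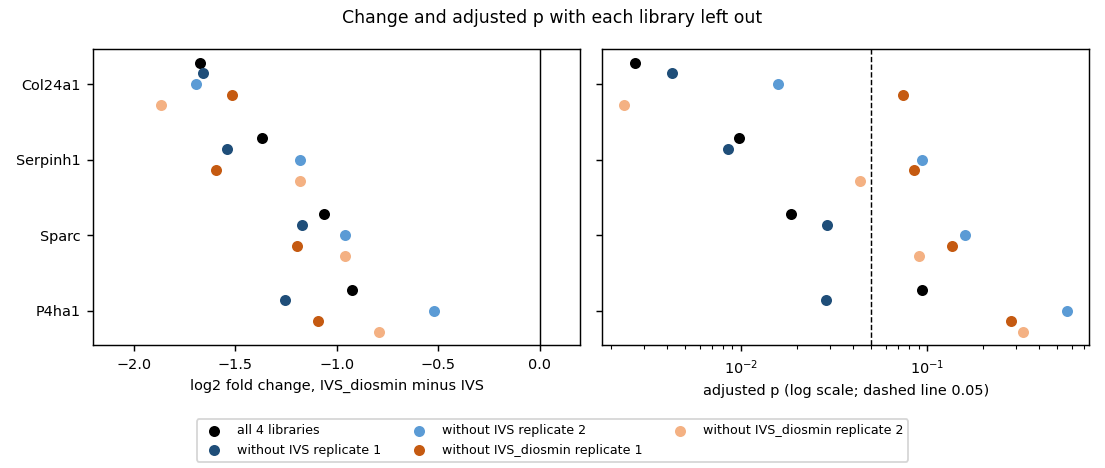
Log2 fold change (left) and adjusted p on a log scale (right) of Col24a1, Serpinh1, Sparc and P4ha1 with all 4 libraries (black) and with each library left out (colours). All values lie below 0, and without IVS_diosmin replicate 1 no gene of the 4 is left of the dashed line at 0.05.

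The upstream sequences of the 3 genes that fell are shown because they moved in one direction, with that of Col3a1, the chain of type III collagen, which did not pass, for comparison. Each runs from 250 bases before to 30 bases after the RefSeq start site (GRCm38.p6, the mm10 assembly), and capitals mark matches to the motifs searched.
Col24a1, chr3:145292222-145292501, plus strand: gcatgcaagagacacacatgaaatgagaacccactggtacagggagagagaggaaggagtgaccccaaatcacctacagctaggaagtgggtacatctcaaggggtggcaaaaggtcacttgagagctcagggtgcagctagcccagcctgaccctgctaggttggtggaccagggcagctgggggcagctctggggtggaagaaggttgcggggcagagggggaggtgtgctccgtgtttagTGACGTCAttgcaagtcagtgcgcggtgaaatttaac
Serpinh1, chr7:99353210-99353489, minus strand: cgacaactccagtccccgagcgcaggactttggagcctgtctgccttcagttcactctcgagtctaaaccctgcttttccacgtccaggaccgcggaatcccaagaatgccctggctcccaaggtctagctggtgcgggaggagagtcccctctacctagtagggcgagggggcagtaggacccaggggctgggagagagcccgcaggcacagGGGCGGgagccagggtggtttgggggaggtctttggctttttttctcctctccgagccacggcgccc
Sparc, chr11:55420051-55420330, minus strand: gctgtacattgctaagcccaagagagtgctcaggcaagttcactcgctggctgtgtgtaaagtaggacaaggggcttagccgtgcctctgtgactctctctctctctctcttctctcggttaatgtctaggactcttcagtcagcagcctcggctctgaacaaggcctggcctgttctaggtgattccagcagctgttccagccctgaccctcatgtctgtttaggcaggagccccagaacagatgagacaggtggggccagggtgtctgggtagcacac
Col3a1, chr1:45311288-45311567, plus strand: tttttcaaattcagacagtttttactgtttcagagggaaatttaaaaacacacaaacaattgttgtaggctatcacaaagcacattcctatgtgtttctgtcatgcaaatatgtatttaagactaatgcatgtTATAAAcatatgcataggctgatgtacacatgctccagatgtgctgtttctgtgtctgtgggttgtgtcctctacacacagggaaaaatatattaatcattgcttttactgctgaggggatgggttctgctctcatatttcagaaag
The RefSeq start of Sparc lies 3103 bases inside the GENCODE gene, so its window does not lie before the outermost annotated start. The other 3 RefSeq starts coincide with the GENCODE gene start.

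RefSeq promoters were found for 36 of the 48 members, and 8 motifs were searched on both strands over 300 bases (250 before to 50 after the start). The letters were TGACGTCA (cyclic AMP response element), TGANTCA (AP-1), GAANNTTC and TTCNNGAA (paired heat shock units in both orders). The CCAAT box was searched by the letters of its name. The GC box was searched as GGGCGG. The TATA box was searched as TATAAA, and the last motif was the endoplasmic reticulum stress element, which contains a CCAAT box. No sequence shown held more than 1 match, so none overlapped. Col24a1 held the full TGACGTCA, starting 7 bases before the start site, and was the only one of the 36 members with it, beside 1.79% of all 32851 promoters. Serpinh1 held a GC box 37 bases before its start, a motif of 22 of the 36 members and of 35.7% of all promoters. Col3a1 held TATAAA 117 bases before its start, a motif of 7 of the 36 members and of 13.6% of all promoters. Sparc held none of the 8. The heat shock letters occurred in 1 of 36 members in the first order and in 2 in the second (7.86% and 8.52% of all promoters), and the stress element in 0 (0.119%). A match is a description of letters and says nothing of binding.

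None of the chains of the main interstitial fibrils passed the test, and they differed more between libraries of a group than between the groups. Col1a1, the alpha 1 chain of type I collagen, was at 8.29 and 13.1 CPM in IVS and at 19.0 and 9.93 CPM with diosmin (log2 0.44 ± 0.34, adjusted p = 0.579). Col1a2, its alpha 2 partner, was at 15.7 and 25.3 CPM against 30.5 and 16.9 CPM (log2 0.22 ± 0.32, adjusted p = 0.805). Col3a1, the single chain of type III, was at 28.9 and 49.1 CPM against 62.1 and 28.3 CPM (log2 0.21 ± 0.41, adjusted p = 0.858). In all 3 the order was the same at the top, with IVS_diosmin replicate 1 highest and IVS replicate 2 next, so the groups overlapped.

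None of the 3 type V chains, which seed and limit fibrils, passed the test. Col5a3 was the most abundant of them, at 37.1 and 38.4 CPM in IVS and at 50.1 and 29.6 CPM with diosmin (log2 0.08 ± 0.25, adjusted p = 0.923). Col5a1 was at 8.12 and 8.94 CPM against 11.4 and 6.66 CPM, and Col5a2 at 4.57 and 10.5 CPM against 10.3 and 5.41 CPM. The diosmin libraries lay on both sides of the saline libraries for Col5a1 and Col5a3, and inside their range for Col5a2.

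Col11a2, a chain of type XI collagen that joins minor fibrils of cartilage and other tissues, was the other fibrillar chain with lower values and no overlap. It was at 16.2 and 13.6 CPM in IVS and at 10.02 and 9.16 CPM with diosmin, and it did not pass (log2 -0.64 ± 0.25, adjusted p = 0.221). Col2a1 and Col11a1, the chains that mark cartilage, had 27 and 23 counts over the 4 libraries and were not tested. Of 10 cartilage and bone markers, 4 had no count in any library, among them Acan, the cartilage proteoglycan.

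Type VI collagen, the beaded filament of the fibre surface, had no chain past the test among the 4 tested (0 also at an unadjusted p under 0.05 and with DESeq2). Col6a1 was at 12.1 and 15.2 CPM in IVS and at 19.4 and 12.2 CPM with diosmin (log2 0.21 ± 0.28, adjusted p = 0.775). Col6a2 was at 5.83 and 8.86 CPM against 10.02 and 7.08 CPM (log2 0.23 ± 0.33, adjusted p = 0.804). Col6a3 was at 12.6 and 9.18 CPM against 12.4 and 8.68 CPM (log2 -0.06 ± 0.29, adjusted p = 0.956), with replicate 1 of each group above replicate 2. Each of these chains overlapped between the groups. Col6a6, a chain that can take the place of the alpha 3 chain, was at 3.602 and 2.19 CPM against 2.08 and 1.32 CPM (log2 -0.78 ± 0.52, adjusted p = 0.502), while Col6a4 and Col6a5 had 2 and 5 counts in all.

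Over the 9 chains of types I, III, V and VI, 7 were highest in IVS_diosmin replicate 1, and the lowest library was IVS replicate 1 for 5 chains and IVS_diosmin replicate 2 for 4. Their summed level was 133 and 179 CPM in IVS and 225 and 125 CPM with diosmin. Tendon cell markers summed to 21.0 and 20.4 CPM in IVS and 43.4 and 14.5 CPM with diosmin, but most of this was 1 gene, Thbs4, without which the sums were 9.43, 10.4, 13.5 and 7.36 CPM. Of the 10 tendon markers, 5 were highest in IVS_diosmin replicate 1 (Thbs4, Chodl, Tnc, Tnmd and Kera), 4 in IVS replicate 2 (Fmod, Comp, Cilp2 and Mkx) and 1 in IVS_diosmin replicate 2 (Scx), and none of the 5 tested passed (1 at an unadjusted p under 0.05, 0 with DESeq2). Fibroblast markers summed to 209 and 354 CPM against 230 and 249 CPM, with 6 values above 0 and 6 below. Of 12 tested 1 passed, Cd34, which fell and which endothelium shares. That call was lost when IVS replicate 2 or either diosmin library was omitted. DESeq2 also called Pi16 higher (log2 1.65, adjusted p = 0.0731 with edgeR). Without overlap 3 of the 12 were higher and 1 was lower, beside 23.4% and 24.1% of all tested genes. At an unadjusted p under 0.05 there were 3 of the 12. Over all tested genes that share was 16.8%, with 1.78% called lower and 1.17% called higher. Pdgfra, the receptor that defines these cells, was at 3.47 to 4.70 CPM. The part of tendon or fibroblast content in the chains' values was not tested. Without IVS_diosmin replicate 1 the log2 values of Col1a1, Col1a2 and Col3a1 were -0.10, -0.27 and -0.46, and those of Col5a1, Col5a2, Col5a3, Col6a1 and Col6a2 were also below 0.

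**Figure D2:**
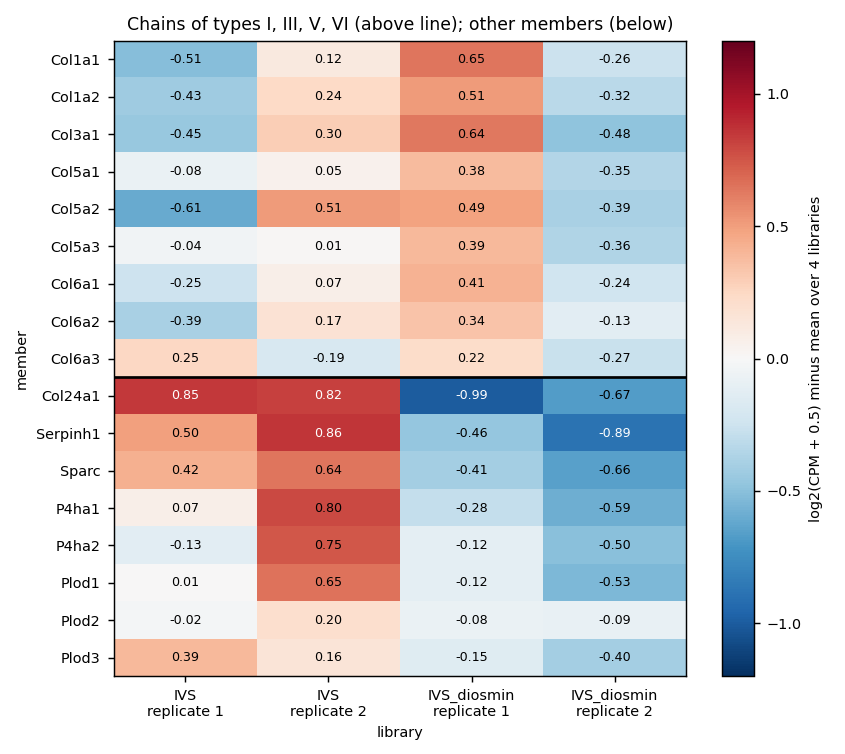
Deviation of each member's log2(CPM + 0.5) from its mean over the 4 libraries (colour and number), by library. Above the line, the chains of types I, III, V and VI are mostly above their mean in IVS replicate 2 and IVS_diosmin replicate 1. Below it, Col24a1, Serpinh1 and Sparc are above their mean in both saline libraries and below it in both diosmin libraries.

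Ratios between chains of 1 collagen type, and between types I and III, were compared per exonic kilobase. The ratio of Col1a1 to Col1a2 was 1.002 and 0.980 in IVS and 1.18 and 1.11 with diosmin (mean 1.07 ± 0.09, SD, n = 4). The ratio of Col6a1 to Col6a2 was 3.54 ± 0.33 and that of Col6a3 to Col6a1 0.274 ± 0.073 (SD, n = 4). Col1a1 to Col3a1 gave 0.453 ± 0.054 and Col5a1 to Col5a2 1.40 ± 0.44 (SD, n = 4). The ratio of Col1a1 to Col1a2 thus varied from 0.980 to 1.18 while the level of Col1a1 itself varied from 8.29 to 19.0 CPM. The size of each ratio depends on the length used: over the longest transcript in place of all exons, Col1a1 to Col1a2 was 0.509 and Col6a1 to Col6a2 was 2.23.

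FACIT chains were low, and none of the 6 tested passed, also at an unadjusted p under 0.05 and with DESeq2 (3 values above 0 and 3 below). Col22a1, a FACIT of the junction between muscle and tendon, was at 16.0 and 9.18 CPM in IVS and at 9.17 and 1.53 CPM with diosmin. IVS replicate 2 and IVS_diosmin replicate 1 were level, and the libraries within each group differed widely (log2 -1.25 ± 0.81, adjusted p = 0.536). Col20a1 was at 4.57 and 2.84 CPM against 6.71 and 5.07 CPM (log2 0.65 ± 0.39, adjusted p = 0.443). Col14a1 and Col16a1, fibril surface chains of connective tissue, lay between 1.14 and 4.93 CPM in all libraries, with overlapping groups. Col12a1, a FACIT of tendon and fascia, had 7, 12, 4 and 2 counts and was not tested. Col9a2 and Col19a1 had 4 and 13 counts in all.

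Among the other chains Col7a1 stood out by level. It forms the anchoring fibrils of skin, and had 385 and 315 CPM in IVS and 237 and 251 CPM with diosmin. Both diosmin libraries were below both saline libraries, but the gene did not pass (log2 -0.52 ± 0.21, adjusted p = 0.213). Its start lies 3963 bases after the end of Uqcrc1, a gene of respiratory complex III on the same strand, which was at 303 and 316 CPM against 222 and 208 CPM (log2 -0.53, adjusted p = 0.192). The part of Uqcrc1 in the count of Col7a1 was not tested.

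None of the other 7 tested chains of this class passed either, and DESeq2 called 0. Of the 8 tested chains 2 had an unadjusted p under 0.05, against 16.8% of all tested genes. Col18a1, the source of endostatin in vessel basement membranes (chromosome 10, 77052178 to 77166548), was at 2.63 and 3.41 CPM in IVS and at 7.32 and 5.00 CPM with diosmin (log2 1.03 ± 0.39, adjusted p = 0.192). Col15a1, its close relative in the basement membrane zone of muscle and capillaries, was at 8.81 and 6.66 CPM against 14.1 and 6.25 CPM (log2 0.39 ± 0.38, adjusted p = 0.680). Col18a1 was thus separated between the groups, and Col15a1 was not. Such separation was seen for 7 of the 8 tested chains of this class, beside 47.5% of all tested genes. Col8a1, a short-chain collagen of vessel walls, was at 1.72 and 1.87 CPM against 3.85 and 2.01 CPM. Col23a1, a transmembrane collagen, was at 0.858 and 4.55 CPM against 5.01 and 4.72 CPM, so that IVS replicate 1 alone was low. Col26a1 had the highest log2 value of the class (1.37 ± 0.72, adjusted p = 0.374), at 0.858 and 0.406 CPM against 1.70 and 1.67 CPM. Col17a1, the hemidesmosome collagen of skin, had the lowest (-1.51 ± 0.97, adjusted p = 0.483), from 12, 10, 4 and 3 counts. Col28a1, a chain of peripheral nerve, was at 1.37 and 2.36 CPM against 1.23 and 1.25 CPM.

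Of the 11 members too low to test, Col10a1, the chain of hypertrophic cartilage, had no count. Col25a1, a transmembrane chain that muscle needs for its motor innervation, had 0 counts in both IVS libraries and 14 and 4 counts in IVS_diosmin replicates 1 and 2. Col13a1, a transmembrane chain of the neuromuscular junction, had 8, 0, 11 and 6 counts in the order of libraries above. The rest had at most 27 counts over the 4 libraries, and these counts carry no test.

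The processing genes had mostly negative values. All 10 were tested and 9 had values below 0, with a class median of -0.63 beside 0.01 over all tested genes. Of the 10, 2 were called lower (Serpinh1 and Sparc), beside 1.78% of all tested genes. At an unadjusted p under 0.05 there were 6 of the 10, against 16.8% of all tested genes. For 6 of the 10 the diosmin libraries lay below both saline libraries, where 24.1% of all tested genes did so. P4ha1, a catalytic subunit of the prolyl 4-hydroxylase that stabilises the helix, was at 19.6 and 32.7 CPM in IVS and at 15.2 and 12.2 CPM with diosmin. It missed the test with all 4 libraries (log2 -0.93 ± 0.27, adjusted p = 0.0938) and passed it without IVS replicate 1 (-1.26, adjusted p = 0.0287). P4ha2, the alternative catalytic subunit, was at 20.2 and 37.5 CPM against 20.4 and 15.6 CPM (log2 -0.68 ± 0.29, adjusted p = 0.262). In both subunits IVS replicate 2 was the highest library.

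The lysyl hydroxylases prepare the cross-linking sites of collagen. Plod1, which acts on the helix, was at 25.0 and 39.2 CPM in IVS and at 22.8 and 17.0 CPM with diosmin (log2 -0.69 ± 0.26, adjusted p = 0.191). Plod3, which also adds sugars to hydroxylysine, was at 17.4 and 14.7 CPM against 11.8 and 9.79 CPM (log2 -0.57 ± 0.25, adjusted p = 0.266). Neither overlapped between the groups, and neither passed. Plod2, which acts on the ends of the chains, was at 5.49 and 6.501 CPM against 5.24 and 5.21 CPM. Of the exons of Plod3, 11.7% lie opposite those of Znhit1, so without strand its count is uncertain; Znhit1 was at 34.9 and 46.6 CPM against 37.2 and 35.6 CPM.

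The lysyl oxidases, which cross-link fibrils outside the cell, had values on both sides of 0. Lox was at 3.14 and 8.86 CPM in IVS and at 4.86 and 6.87 CPM with diosmin (log2 -0.01 ± 0.46, adjusted p = 0.994). Loxl1 was at 2.23 and 4.71 CPM against 4.16 and 1.25 CPM, and Loxl2 at 1.66 and 2.11 CPM against 3.01 and 1.39 CPM (log2 0.22 ± 0.57, adjusted p = 0.896). All 3 overlapped between the groups.

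**Figure D3:**
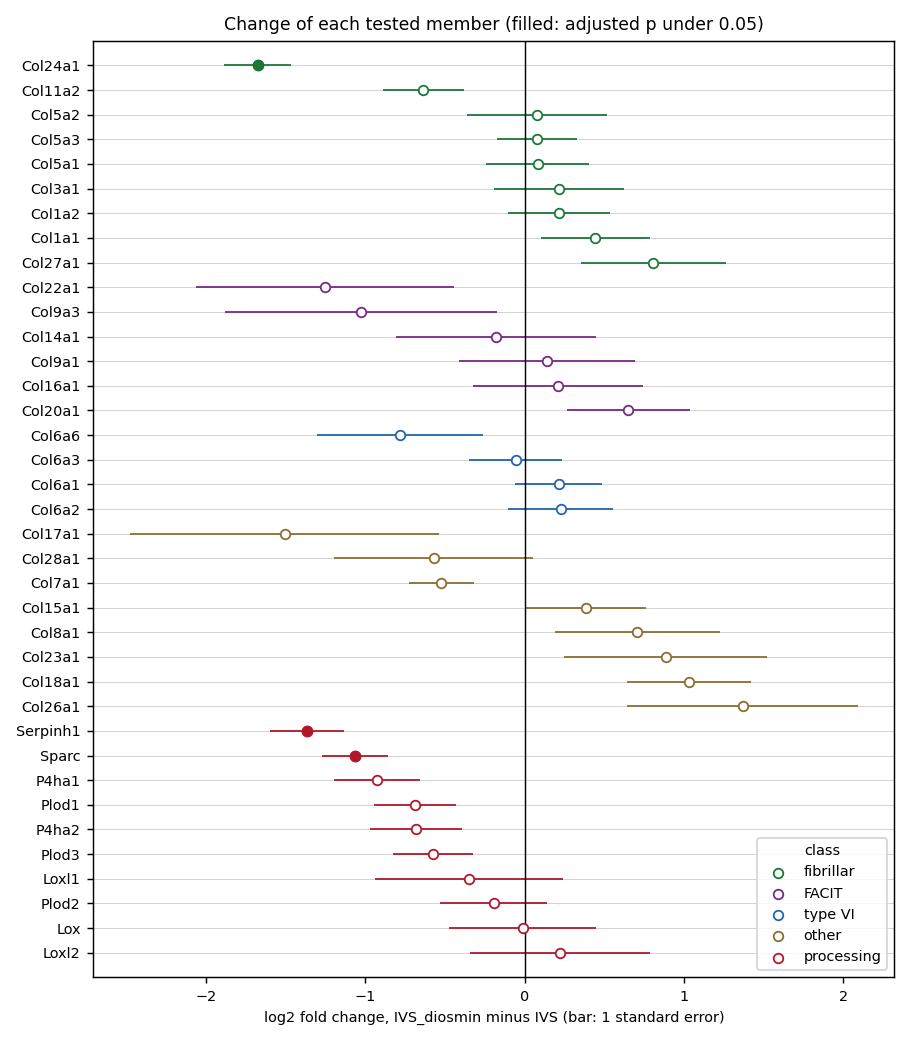
Log2 fold change (IVS_diosmin minus IVS) of the 37 tested members by class, with bars of 1 standard error and filled points for an adjusted p under 0.05. Col24a1, Serpinh1 and Sparc are filled and lie at -1.67, -1.37 and -1.07, and 9 of the 10 processing genes lie below 0.

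Ranked by level per exonic kilobase, so that genes of different length can be set side by side, Col7a1 (28.9 CPM per kilobase, mean of 4 libraries) and Sparc (28.3) were the highest members, followed by Serpinh1 (15.3), Col24a1 (6.63) and Col5a3 (5.70). The place of Col24a1 rested on the saline libraries (10.2 and 10.001 CPM per kilobase); with diosmin it was at 2.80 and 3.53, below Col5a3 at 7.36 and 4.34. Col7a1 and Sparc did not differ beyond their spread, with 23.0 to 37.5 and 16.7 to 41.2 CPM per kilobase. P4ha1 (4.84), Col3a1 (4.29), Plod1 (3.85) and P4ha2 (3.75) came next, and their ranges over libraries overlapped. Col1a1 (1.92) and Col1a2 (1.78) ranked 12 and 14. With the longest transcript as the length, Sparc, Col7a1 and Serpinh1 stayed the first 3, and Col24a1 moved to rank 6.

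**Figure D4:**
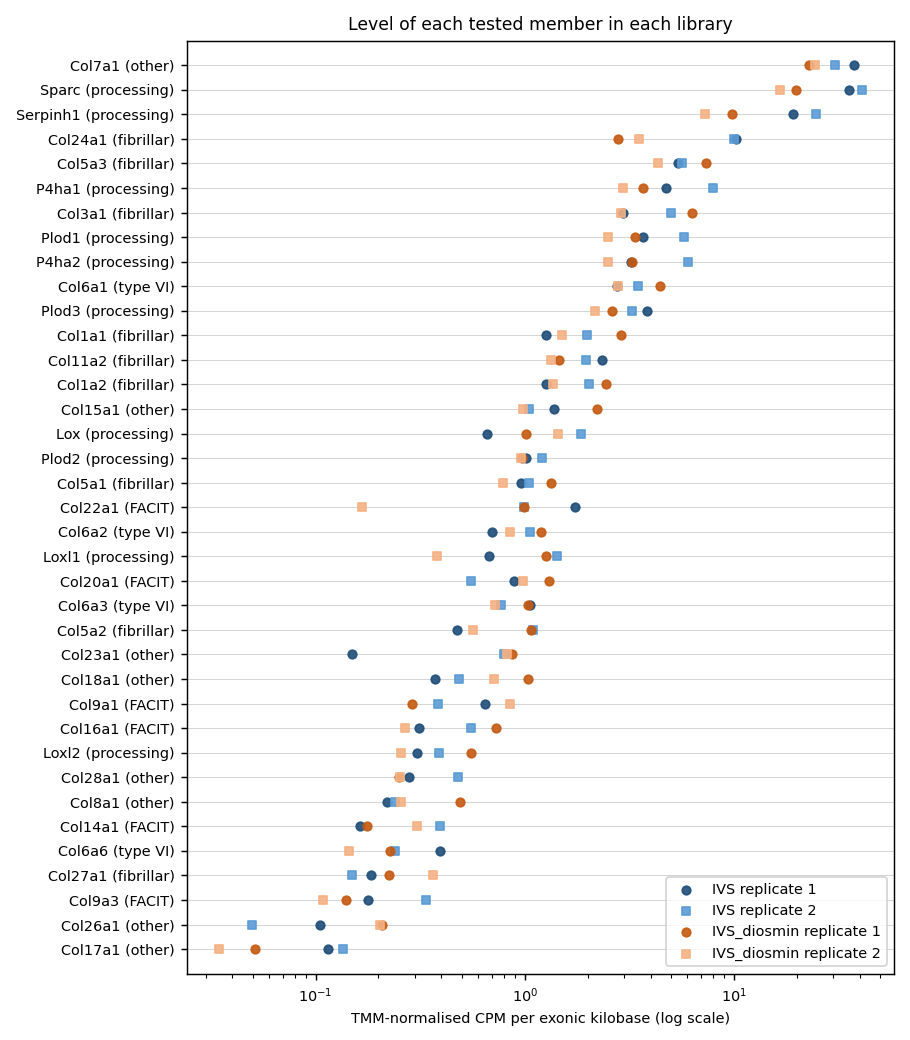
Level of each tested member in each library, in TMM-normalised CPM per exonic kilobase on a log scale, sorted by the mean. Blue points are saline and orange points diosmin; for Sparc, Serpinh1 and Col24a1 both orange points lie left of both blue points, while for Col3a1, Col1a1 and Col1a2 the colours are interleaved.

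Several members lie side by side in the genome. Col3a1 and Col5a2 are 24.6 kb apart on chromosome 1 (log2 0.21 and 0.08), and Col6a2 and Col6a1 85.2 kb apart on chromosome 10 (0.23 and 0.21). Col9a1 and Col19a1 are 9.21 kb apart, and only the first was high enough to test (0.14). None of these neighbours passed the test.

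The other genes of collagen manufacture were taken as 6 lists. Beside each count below, 1.78% of all tested genes were called lower, 1.17% higher, and 16.8% had an unadjusted p under 0.05. Of 15 tested genes for hydroxylation and folding in the endoplasmic reticulum 3 had an unadjusted p under 0.05 (median log2 of the list -0.34). After adjustment 1 was called lower and none higher. It was Pdia3, a disulfide isomerase of general protein folding, at 44.7 and 54.4 CPM in IVS and 22.4 and 17.8 CPM with diosmin (log2 -1.30 ± 0.22, adjusted p = 0.00977); omitting IVS replicate 2 or IVS_diosmin replicate 1 gave 0.0902 or 0.0937. P4hb, the beta subunit that holds prolyl 4-hydroxylase in the endoplasmic reticulum, was at 81.8 and 85.1 CPM against 71.6 and 69.0 CPM (log2 -0.25 ± 0.19, adjusted p = 0.583). P3h1, a prolyl 3-hydroxylase, and Ppib, its cyclophilin partner, had log2 values of -0.36 and -0.34 and did not pass. P3h2, another prolyl 3-hydroxylase, had the highest value of the list (log2 2.53, adjusted p = 0.131) and did not pass either. Its counts were low, at 4 and 6 in IVS and 38 and 17 with diosmin. Of the 15 values 5 lay above 0 and 10 below. For export and propeptide removal, 0 of 15 tested genes passed (1 at an unadjusted p under 0.05, 0 with DESeq2), with a median of -0.05. Sec24d, a coat protein of the vesicles that carry procollagen, had the smallest p (log2 -1.51 ± 0.55, adjusted p = 0.175).

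Among 18 tested partners of fibril assembly and cross-linking 1 was called higher and none lower (median 0.21). At an unadjusted p under 0.05 there were 2. Aspn, a small leucine-rich proteoglycan that binds collagen, went from 9.95 and 6.91 CPM to 25.5 and 16.5 CPM (log2 1.31 ± 0.29, adjusted p = 0.0329). Its adjusted p was 0.249 when IVS replicate 2 was omitted and 0.306 when IVS_diosmin replicate 1 was. Dcn, decorin, the most studied of that family, was at 37.6 and 74.7 CPM against 58.1 and 74.0 CPM (log2 0.24 ± 0.30, adjusted p = 0.775). Fmod, fibromodulin, of the same family, did not pass (log2 -1.84, adjusted p = 0.102).

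Of 10 tested collagen receptors 2 were called lower (median -0.50, 4 values above 0 and 6 below). At an unadjusted p under 0.05 there were 5, against 16.8% of all tested genes. Itgb1, the beta subunit shared by the collagen-binding integrins, went from 77.9 and 91.5 CPM to 44.0 and 41.2 CPM (log2 -0.99 ± 0.20, adjusted p = 0.0233). Adgrg1, an adhesion receptor for type III collagen, went from 45.6 and 64.1 CPM to 26.8 and 17.4 CPM (log2 -1.31 ± 0.26, adjusted p = 0.0211). Both are also made by endothelium and other cells, and both missed the threshold (0.0815 to 0.189) when IVS replicate 2 or either diosmin library was omitted. Ddr2, a receptor tyrosine kinase for fibrillar collagen, was at 23.1 and 20.8 CPM against 13.3 and 12.7 CPM and did not pass (adjusted p = 0.0972). Cspg4 was higher with diosmin without overlap and did not pass (log2 0.81, adjusted p = 0.282). Of 7 tested genes of cleavage and uptake 1 fell, the inhibitor Timp3 (log2 -1.005 ± 0.23, adjusted p = 0.0364), with adjusted p of 0.288 and 0.292 without IVS replicate 2 and IVS_diosmin replicate 1. Of the exons of Timp3, 21.3% lie opposite those of Syn3, which had 1415, 1276, 449 and 782 counts, so without strand its value is uncertain. Mmp14 and Mmp2, proteases that act on collagen, had log2 values of 1.46 and 0.97 and did not pass (adjusted p = 0.168 and 0.221). Mmp9 went the other way and did not pass (log2 -2.39, adjusted p = 0.208). Its counts were low, at 16 and 18 in IVS and 2 and 4 with diosmin. Of the 7 tested genes of this list 5 had an unadjusted p under 0.05, against 16.8% of all tested genes. The groups did not overlap for 6 of the 7 (3 lower, 3 higher), beside 47.5% of all tested genes. None of 18 tested genes of TGF-beta control passed (3 at an unadjusted p under 0.05, 0 with DESeq2). Tgfb3 had the smallest p, at 8.63 and 10.1 CPM against 16.0 and 15.4 CPM (log2 0.75 ± 0.25, adjusted p = 0.142), while Tgfb1 had a log2 value of -1.08 (adjusted p = 0.153).

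**Figure D5:**
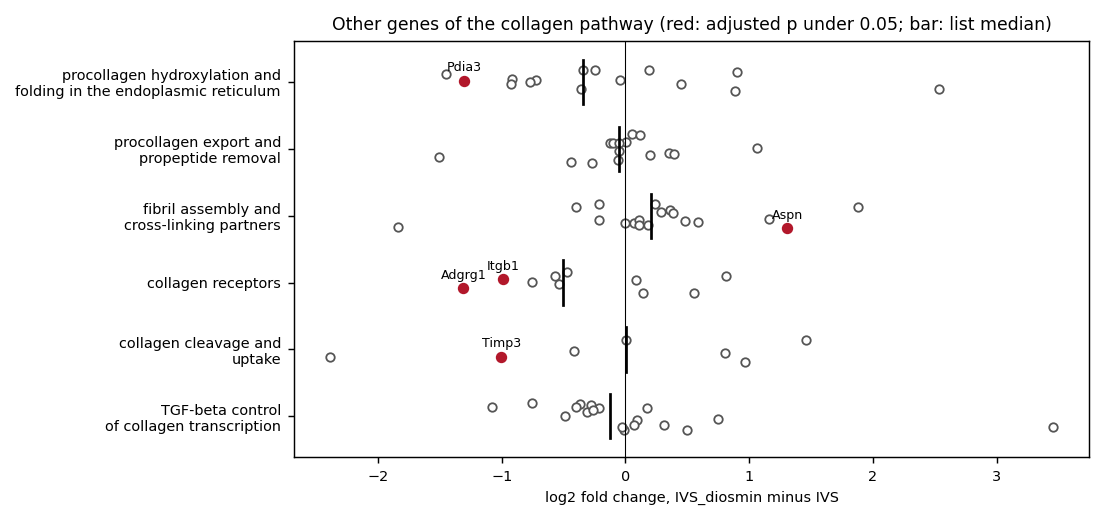
Log2 fold change of every tested gene of 6 lists of the collagen pathway, with red points for an adjusted p under 0.05 and a bar at each list's median. Pdia3, Adgrg1, Itgb1 and Timp3 lie below 0 and Aspn above it, and the list medians run from -0.50 to 0.21.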

How the data were processed

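Raw counts of reads per gene were deposited by the authors, 1 file per library of poly-A selected RNA; per the submitters' processing notes, HISAT2 2.1.0, HTSeq and the mm10 build were used. Not given in the sources used here are the counter's version, its annotation, its strand setting and any filter. Reads assigned to genes were 24.9% to 27.7% of those listed in a file. The 5 summary lines, which name no gene, stayed out.

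Symbols and exon lengths came from GENCODE M21 (55141 of 55401 identifiers matched). Genes were filtered with filterByExpr (13533 kept), scaled by TMM, and tested with edgeR 4.0.16 (R 4.3.3) by a robust quasi-likelihood fit, 2-sided, with Benjamini-Hochberg adjustment over all tested genes; the standard error is the log2 fold change divided by the square root of F. The script was tested on simulated data. With 2 libraries a group, the smallest p of an exact permutation test is 0.333. Alternatives were other scalings, filters, DESeq2 1.42.0, a replicate block and each library left out, the lone library left being taken to vary as the other arm does. Replicates differed beyond sampling noise (chi-square per degree of freedom 31 for the saline pair, 21.2 for the diosmin pair).

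Given in full were members with an adjusted p under 0.05 or a mean of at least 20 CPM and the highest, most raised and most lowered of each class, plus list genes past the test or of smallest p; further members were named after their values were seen. Members and lists were chosen with earlier results of these data known.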

Additional observations from a re-analysis of the deposited data

How the results depend on the processing

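The 400 genes called became 616 with DESeq2, 919 without a filter on low counts, 93 with the replicate block and 38 to 366 with 1 library left out. Library size alone shifted the median of all genes by -0.12 (log2) and raised the share of lower calls from 60.3% to 74.6%. The 3 members called became 1 with the replicate block (Serpinh1 and Sparc missed at an adjusted p of 0.0869), and 0 to 4 with a library left out; the other scalings, filters and DESeq2 kept all 3. The deviations of same-numbered libraries were not correlated over genes (r = -0.00863). With 2 libraries a group this is a single comparison, which cannot show whether the libraries were paired. With the replicate block Pdia3, Aspn, Adgrg1, Itgb1 and Timp3 also missed (0.0819, 0.0812, 0.127, 0.0958 and 0.0806), and of the 5 endothelial calls 1 was left (Cdh5). Fabp4 and Cd34 were not called with the block either. P4ha1 passed with library size alone (0.0490) and without a filter (0.00757). Aspn missed with library size alone (0.0517), and Aspn and Timp3 without robust estimation (0.0509 and 0.0522). The members' median ran from -0.43 to 0.23 with a library left out. Over the longest transcript, Col1a1 to Col1a2 was 0.509, Col1a1 to Col3a1 0.284 and Col6a1 to Col6a2 2.23.

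Of the 34 tested members not called, 16 changed sign under at least 1 alternative and 18 did not. With library size alone Col5a1, Col5a2 and Col5a3 had log2 values of -0.038, -0.0055 and -0.046, and with the replicate block Lox had 0.11. Leaving out 1 library gave log2 ranges of -0.70 to 0.56 for Col14a1, -0.31 to 0.84 for Col15a1, -0.68 to 0.75 for Col16a1, -0.098 to 0.83 for Col1a1, -0.27 to 0.59 for Col1a2, -0.46 to 0.66 for Col3a1, -0.35 to 0.41 for Col5a1, -0.46 to 0.77 for Col5a2, -0.35 to 0.39 for Col5a3, -0.16 to 0.50 for Col6a1, -0.055 to 0.54 for Col6a2, -0.33 to 0.19 for Col6a3, -0.86 to 0.71 for Col9a1, -0.59 to 0.89 for Lox, -1.45 to 0.27 for Loxl1 and -0.43 to 0.66 for Loxl2. The cause was not tested. At this depth 11 of the 48 members had too few counts to test.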
